A study of Mus musculus with 4 samples.

Results

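DNA methylation of Lmx1a and Lmx1b was described in 4 RRBS libraries. The genes were represented by every run of measured cytosines inside a fixed window around each, 169.61 to 169.79 Mb of chromosome 1 for Lmx1a (180 kb) and 33.41 to 33.502 Mb of chromosome 2 for Lmx1b (92 kb) in the coordinates of mm9 (NCBIM37). A run is a stretch of at least 5 cytosine positions with at least 5 calls in each of the 4 libraries and gaps under 100 bp between neighbours. Of 31564 runs in the genome, 16 lay in the windows, 5 at Lmx1a and 11 at Lmx1b, and of 629262 positions measured in all 4 libraries the windows held 309. The 97 positions at Lmx1a all lay in runs, whereas at Lmx1b 170 of 212 did.

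The study set dopaminergic neurons made from induced pluripotent stem cells (iPSCs) against primary mesodiencephalic dopaminergic (mdDA) neurons, the midbrain cells affected in Parkinson's disease, to ask how far their DNA methylation matches. RRBS (reduced representation bisulfite sequencing) cuts genomic DNA with MspI, an enzyme that recognises CCGG, and reads the CpG-rich fragments after bisulfite conversion. The iPSCs carried the reporter genotype Pitx3 Gfp/+ and, by the study's methods, came from fibroblasts of E14.5 embryos reprogrammed with retroviral Oct4, Klf4, Sox2 and cMyc. The NESTIN-GFP precursors carried Nestin Gfp/+ and were collected after 14 days of differentiation on MS5 mouse stromal cells. Their reporter line thus differed from that of the other 3 libraries, and their sample label calls them neurons while the methods call them precursors. The iPSC-DA neurons carried Pitx3 Gfp/+ and were sorted for PITX3-GFP after 4 weeks of differentiation, for which iPSCs were likewise seeded on MS5 cells. The mdDA neurons carried Pitx3 Gfp/+ and were sorted for PITX3-GFP from the midbrain of E14.5 embryos. All groups thus had a GFP reporter allele, and whether the sequenced iPSCs were of the clone that was differentiated is not given in the sources used here.

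LMX1A and LMX1B are paralogous transcription factors of the LIM-homeodomain family, which bind DNA through a homeodomain and partner proteins such as LDB1 through a pair of LIM zinc-binding domains. Both act in the floor plate of the midbrain, where they specify dopaminergic progenitors, and both remain expressed in young dopaminergic neurons. LMX1B has further roles in the isthmic organizer, in serotonergic neurons and in dorsal limb patterning. Methylation of the cytosine in CpG dinucleotides is usually low at CpG-rich promoters, and a densely methylated promoter often belongs to a silent gene.

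The stretches of 250 bases upstream of the RefSeq start sites are shown because they hold the CG dinucleotides in which the promoters can be methylated and the CCGG sites that RRBS needs. Both are printed 5′ to 3′ on the strand of the gene, from RefSeq on GRCm38.p6, with CG in capitals. The Lmx1a stretch lies at chr1:167689308-167689557 on the plus strand, and the Lmx1b stretch at chr2:33641099-33641348 on the minus strand.
Lmx1a: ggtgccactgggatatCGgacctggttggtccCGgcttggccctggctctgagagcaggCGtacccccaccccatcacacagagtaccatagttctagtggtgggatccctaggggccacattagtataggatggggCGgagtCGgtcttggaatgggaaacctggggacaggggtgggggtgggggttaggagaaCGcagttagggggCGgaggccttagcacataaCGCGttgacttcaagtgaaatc
Lmx1b: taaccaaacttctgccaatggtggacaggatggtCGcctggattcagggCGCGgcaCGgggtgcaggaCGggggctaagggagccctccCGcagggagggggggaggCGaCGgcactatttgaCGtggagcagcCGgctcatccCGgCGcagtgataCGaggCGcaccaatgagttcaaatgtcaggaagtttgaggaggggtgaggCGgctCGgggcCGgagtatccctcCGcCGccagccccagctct
The Lmx1a stretch held 9 CG dinucleotides, more than in 59.7% of RefSeq promoters, and the Lmx1b stretch held 19, more than in 80.3%. CCGG, which reads the same on both strands, occurred once in the Lmx1a stretch and 3 times in the Lmx1b stretch. It occurred in 47.1% of all promoter stretches of this length.

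The Lmx1b start site could be placed among the measured cytosines, and that of Lmx1a could not. No genome of the files' build was used, so the spacing of CG in the RefSeq promoter of 300 bases, which adds 50 bases after the start site, was slid along the listed positions of the window. At Lmx1b the best offset put 16 of 16 listed positions on a CG, against 5 at the next best offset, which placed the start site at position 33496618 of chromosome 2 on the minus strand. This search of the window was added after the data were seen, because over the whole chromosome the next best offset matched 9 positions, more than the planned limit allowed. At Lmx1a only 4 positions matched, against 3 at the next best offset, so that no distance from a start site is given there. Exons and introns were not assigned for either gene.

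The libraries differed in depth and in their general methylation level. The precursors had the fewest calls, 31419979 in all, compared with 68545752 in iPSCs, 72993474 in mdDA neurons and 79648099 in iPSC-DA neurons. The precursors had a median of 17 calls per position at Lmx1a and 16 at Lmx1b, compared with 95 to 137 in the other libraries, so that their levels are the least precise. Over all runs of the genome the median methylation level was 5.58% in iPSCs, 7.07% in mdDA neurons, 20% in precursors and 28.0% in iPSC-DA neurons. Each condition had 1 library, so that the spread between replicates is unknown for every difference below.

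Differences between libraries were tested run by run on the methylated and unmethylated calls (Fisher's exact test, two-sided), and p-values were adjusted by the method of Benjamini and Hochberg over all 31564 runs. A run was called higher or lower at an adjusted p under 0.05 where the libraries also differed by 20 percentage points or more. The test compares libraries, not conditions. Calls of 1 read and copies from PCR are not independent, so that p-values are too small and the 95% intervals (Wilson for levels, Newcombe for differences) cover counting error only. A level is a share of calls over all cells of a library, and partial methylation of every cell and full methylation of some cells cannot be told apart. Bisulfite also does not separate 5-methylcytosine from 5-hydroxymethylcytosine.

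Both paralogs were nearly free of methylation in most of their runs in iPSCs and in mdDA neurons, and were partly methylated there in iPSC-DA neurons. Between iPSC-DA and mdDA neurons, 3 of 5 runs at Lmx1a and 9 of 11 at Lmx1b were called higher, and 1 run at Lmx1b was called lower. Over all runs, 25.9% were called in this comparison, 24.3% higher and 1.66% lower. The largest adjusted p among the called runs was 9.16e-64 at Lmx1a and 1.11e-14 at Lmx1b (Fisher's exact test). The median difference over runs was 28.4 points at Lmx1a and 35.4 points at Lmx1b, compared with 0.891 points over all runs of the genome.

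**Figure D1:**
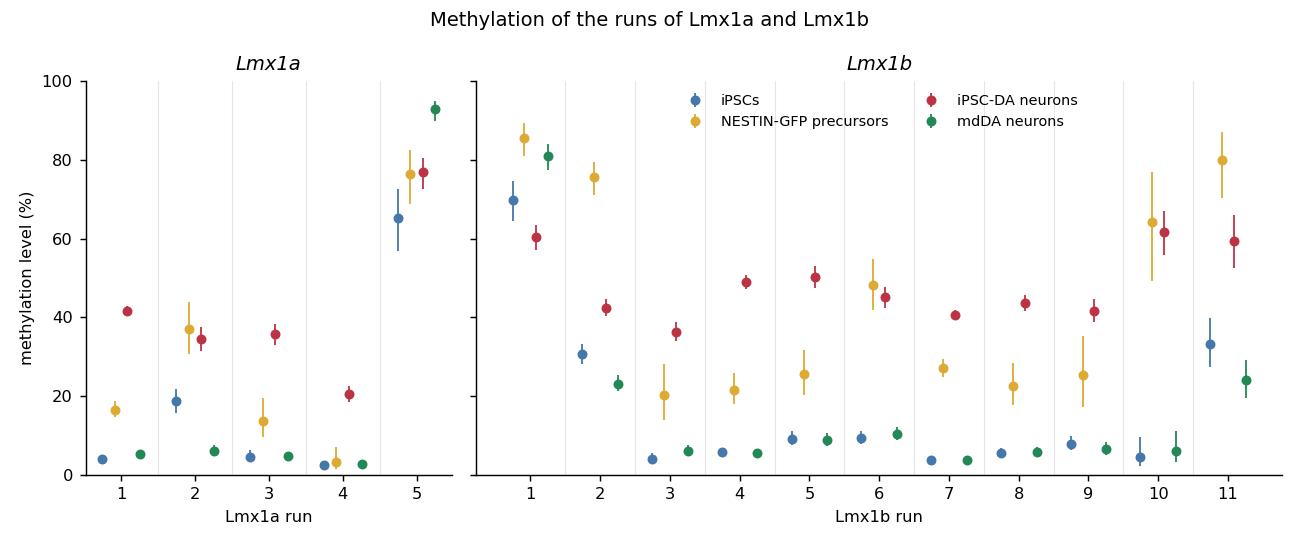
Methylation level in percent (vertical axis) of each of the 5 runs at Lmx1a and the 11 runs at Lmx1b (horizontal axis, numbered by rising coordinate) in the 4 libraries; points are levels over pooled calls and bars are Wilson 95% intervals. iPSCs and mdDA neurons lie under 20% in 12 of the 16 runs, and iPSC-DA neurons lie above both in these 12.

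At Lmx1a, runs 1 to 3 formed a dense group, with run 2 starting 1980 bp and run 3 starting 3846 bp after the first position of run 1. Run 1, at chr1:169618470-169619263, was the longest of the gene, with 59 positions over 794 bp. Its level was 4.08% in iPSCs (95% CI 3.62% to 4.59%), 5.29% in mdDA neurons (4.82% to 5.80%), 16.5% in precursors (14.6% to 18.7%) and 41.7% in iPSC-DA neurons (40.6% to 42.7%). iPSC-DA neurons thus stood above every other library, and iPSCs and mdDA neurons lay close together. The difference between iPSC-DA and mdDA neurons was 36.4 points (95% CI 35.2 to 37.5), larger than in 90.1% of all runs. In iPSC-DA neurons the 59 positions ranged from 23.1% to 63.1%, whereas in mdDA neurons they ranged from 0% to 31.8%. All 59 were higher in iPSC-DA neurons than in mdDA neurons.

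Run 3, at chr1:169622316-169622439 with 11 positions, had the same order of libraries as run 1. Its level was 4.58% in iPSCs, 4.66% in mdDA neurons, 13.8% in precursors and 35.6% in iPSC-DA neurons. The difference between iPSC-DA and mdDA neurons was 31.0 points (95% CI 28.1 to 33.8). Run 2, at chr1:169620450-169620526 with 7 positions, stood apart in iPSCs, where it was already partly methylated. Its level was 18.6% in iPSCs (95% CI 15.8% to 21.9%), 6.10% in mdDA neurons (4.87% to 7.61%), 37.0% in precursors and 34.5% in iPSC-DA neurons. It was higher in iPSC-DA than in mdDA neurons by 28.4 points (95% CI 25 to 31.7). mdDA neurons were below iPSCs at all 7 positions, with a difference of -12.5 points (95% CI -16.0 to -9.33, adjusted p = 3.81e-15 by Fisher's exact test), which did not reach the 20 points of a call.

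**Figure D2:**
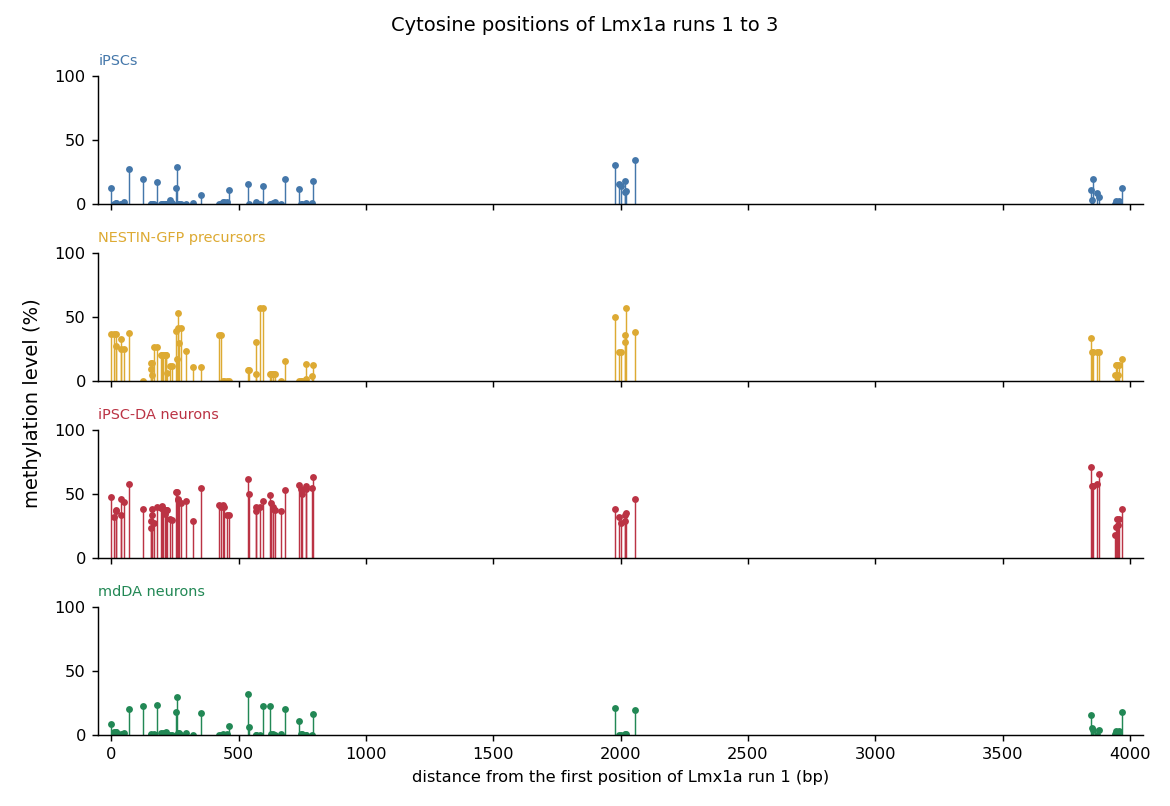
Methylation level in percent of every position in Lmx1a runs 1 to 3 (vertical axes, 1 panel per library) against the distance in bp from the first position of run 1; each stem is 1 cytosine position. Stems of iPSC-DA neurons in run 1 reach 23.1% to 63.1%, while those of iPSCs stay between 0% and 28.6% and those of mdDA neurons between 0% and 31.8%.

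The other runs of Lmx1a lay more than 100 kb away from the dense group. Run 4, at chr1:169733296-169733403 with 15 positions, started 114826 bp after the first position of run 1. Its level was 2.52% in iPSCs, 2.74% in mdDA neurons, 3.31% in precursors (95% CI 1.53% to 7.04%) and 20.5% in iPSC-DA neurons. iPSC-DA neurons stood apart here, and the intervals of the other 3 libraries overlapped. The difference from mdDA neurons of 17.7 points (95% CI 15.7 to 19.8, adjusted p = 1.03e-76 by Fisher's exact test) stayed under 20 points, although all 15 positions were higher in iPSC-DA neurons.

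Run 5, at chr1:169750317-169750419 with 5 positions, was the methylated run of Lmx1a. Its level was 65.2% in iPSCs (95% CI 57.0% to 72.7%), 92.9% in mdDA neurons (89.8% to 95%), 76.4% in precursors (68.8% to 82.6%) and 76.8% in iPSC-DA neurons (72.6% to 80.5%). Over these 5 positions mdDA neurons were the most methylated library. They exceeded iPSCs by 27.6 points (95% CI 19.6 to 36.2, adjusted p = 8.30e-13 by Fisher's exact test), and the run was called. iPSC-DA neurons were lower than mdDA neurons at all 5 positions by a difference of -16.1 points (95% CI -20.8 to -11.2), which was under the size of a call. The position at 169750356 was at 0% in iPSCs and in precursors, 0 of 27 calls in each, which allows a share of up to 11.1%, and at 89.5% in mdDA neurons and 77.4% in iPSC-DA neurons. RRBS reads an unmethylated cytosine and a thymine alike, and whether all lines carry a cytosine there was not analysed here. Without that position, an alternative chosen after the data were seen, mdDA neurons exceeded iPSCs by 12.6 points (95% CI 5.59 to 21.2), iPSC-DA neurons were lower than iPSCs by a difference of -4.42 points (-12.2 to 4.83), and the call between mdDA neurons and iPSCs was lost. Precursors were then at 94.0% and mdDA neurons at 93.7%, so that the rank of mdDA neurons rests on the single position, and iPSC-DA neurons minus precursors was -17.4 points (95% CI -23.0 to -10.2).

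At Lmx1b the measured cytosines were concentrated at the start site. Run 8, at chr2:33496496-33496724 with 22 positions, spans it, from 106 bp upstream to 122 bp downstream. Its level was 5.55% in iPSCs (95% CI 4.58% to 6.70%), 5.80% in mdDA neurons (4.77% to 7.03%), 22.6% in precursors (17.7% to 28.3%) and 43.6% in iPSC-DA neurons (41.6% to 45.6%). iPSC-DA neurons exceeded mdDA neurons by 37.8 points (95% CI 35.4 to 40.1), and all 22 positions were higher. Single positions ranged from 11.4% to 60.4% in iPSC-DA neurons, from 0% to 66.7% in precursors and from 0% to 27.3% in mdDA neurons.

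In the promoter of 300 bases, 7 of 24 CG dinucleotides were measured in all 4 libraries, and all 7 lie in the printed upstream stretch. They are described singly because of that sequence, a choice made after their values were seen. Their pooled level was 6.78% in iPSCs (95% CI 5.40% to 8.50%), 6.04% in mdDA neurons (4.65% to 7.82%), 27.5% in precursors (20% to 36.6%) and 47.2% in iPSC-DA neurons (44.5% to 50%). Across the 7, levels in iPSC-DA neurons ran from 36.4% at the CG 88 bp upstream to 59.8% at the CG 32 bp upstream. In mdDA neurons 5 of them were at 0% to 2.34%, and those at 106 bp and 32 bp upstream were at 18.8% and 15.4%. The same pair stood out in iPSCs, at 22.1% and 17.8%, while the other 5 were at 0% to 3.87%. Of the 7, only this pair lies in CCGG, the site that MspI cuts. Whether lying at a cut site raised the measured level was not tested. The precursors had 14 to 21 calls at each CG, so that their levels of 18.8% to 35.7% rest on few reads.

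Run 7, at chr2:33495984-33496387, lies 231 to 634 bp downstream of the start site and held 53 positions, the most of any run at Lmx1b. Its level was 3.63% in iPSCs, 3.64% in mdDA neurons, 27.0% in precursors (95% CI 24.7% to 29.5%) and 40.6% in iPSC-DA neurons (39.4% to 41.8%). iPSCs and mdDA neurons differed by 0.00462 points (95% CI -0.665 to 0.690), while iPSC-DA neurons exceeded mdDA neurons by 37.0 points (35.7 to 38.2). The precursors already exceeded iPSCs by 23.4 points, and the run was called higher there too.

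The next runs downstream had the same order of the dopaminergic libraries but differed in the precursors. Run 6, at chr2:33495446-33495812 (806 to 1172 bp downstream, 13 positions), was at 9.43% in iPSCs, 10.4% in mdDA neurons, 48.2% in precursors and 45.0% in iPSC-DA neurons. Run 5, at chr2:33494788-33495083 (1535 to 1830 bp downstream, 9 positions), was at 9.09% in iPSCs, 8.83% in mdDA neurons, 25.6% in precursors and 50.3% in iPSC-DA neurons. iPSC-DA neurons exceeded mdDA neurons by 34.6 points (95% CI 31.5 to 37.7) in run 6 and by 41.5 points (38.1 to 44.7) in run 5. The precursors were level with iPSC-DA neurons in run 6, with a difference of -3.20 points (95% CI -10.2 to 3.73) for iPSC-DA neurons minus precursors, and were 24.7 points below them in run 5 (18.0 to 30.7).

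Upstream of the start site, run 9 at chr2:33497105-33497256 (487 to 638 bp upstream, 7 positions) was at 7.83% in iPSCs, 6.51% in mdDA neurons, 25.3% in precursors and 41.7% in iPSC-DA neurons. Run 10, at chr2:33497756-33497794 (1138 to 1176 bp upstream, 6 positions), was at 4.58% in iPSCs, 6.00% in mdDA neurons, 64.3% in precursors and 61.6% in iPSC-DA neurons. Run 10 showed the largest difference between iPSC-DA and mdDA neurons of the 16 runs, 55.6 points (95% CI 48.0 to 61.7), larger than in 98.6% of all runs. Its level in precursors rests on 42 calls (95% CI 49.2% to 77.0%). These were 7 calls at each of the 6 positions, which span 39 bp, so that they may come from as few as 7 reads. In run 9 the difference between iPSC-DA and mdDA neurons was 35.2 points (95% CI 31.8 to 38.5).

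**Figure D3:**
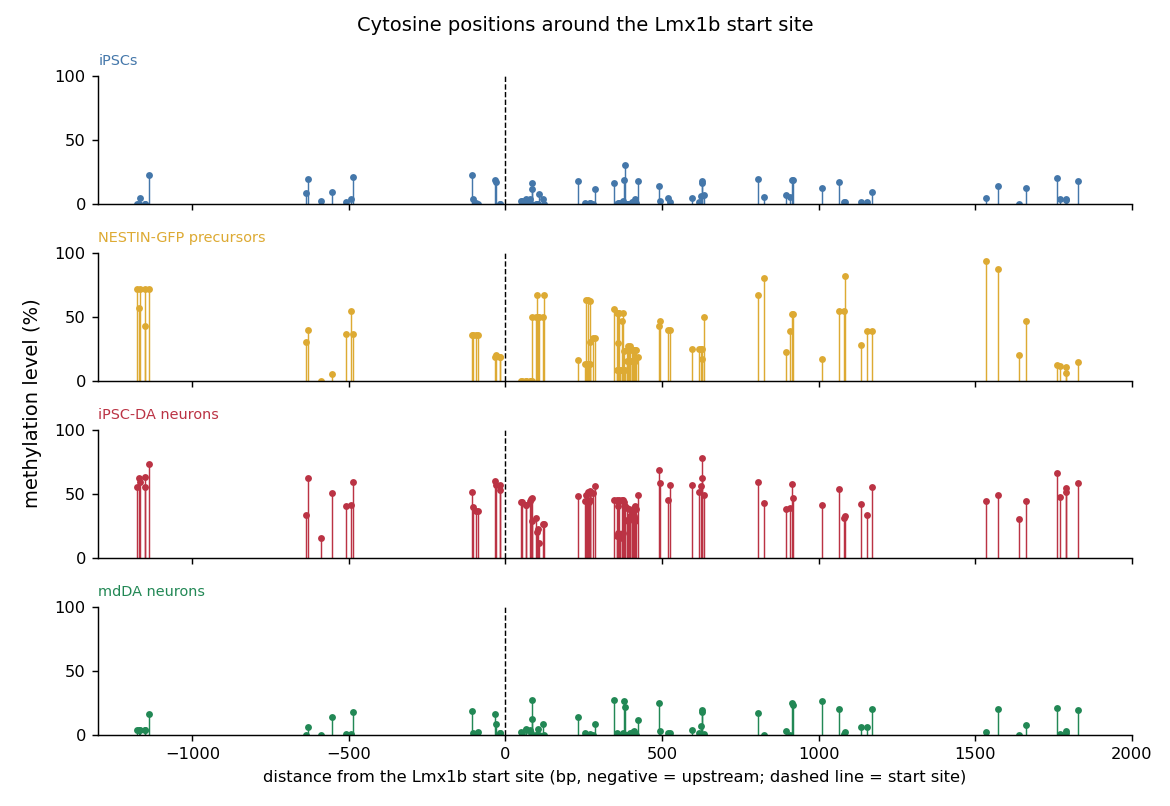
Methylation level in percent of every run position near the Lmx1b start site (vertical axes, 1 panel per library) against the distance in bp from the start site, with upstream negative and the start site as a dashed line; each stem is 1 cytosine position. Over the 110 positions of the 6 runs drawn, the pooled level was 5.31% in iPSCs, 5.69% in mdDA neurons, 29.3% in precursors and 43.1% in iPSC-DA neurons.

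Farther inside Lmx1b, runs 3 and 4 were also low in iPSCs and in mdDA neurons. Run 4, at chr2:33487016-33487514 (9104 to 9602 bp downstream, 29 positions), was at 5.82% in iPSCs, 5.61% in mdDA neurons, 21.6% in precursors and 48.9% in iPSC-DA neurons. Run 3, at chr2:33472228-33472346 (24272 to 24390 bp downstream, 6 positions), was at 4.01% in iPSCs, 5.99% in mdDA neurons, 20.2% in precursors and 36.4% in iPSC-DA neurons. The higher level of iPSC-DA neurons was thus not limited to the start site. They exceeded mdDA neurons by 43.3 points (95% CI 41.3 to 45.2) in run 4 and by 30.4 points (27.5 to 33.2) in run 3.

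The other 3 runs of Lmx1b were methylated to some degree in all libraries, and in them precursors, not iPSC-DA neurons, were highest. Run 11, at chr2:33499447-33499576 (2829 to 2958 bp upstream, 7 positions), was at 33.3% in iPSCs, 24.0% in mdDA neurons, 80.0% in precursors and 59.4% in iPSC-DA neurons. Run 2, at chr2:33431075-33431252 (65366 to 65543 bp downstream, 10 positions), was at 30.7% in iPSCs, 23.1% in mdDA neurons, 75.5% in precursors and 42.4% in iPSC-DA neurons. Both were higher in iPSC-DA than in mdDA neurons, by 35.4 points (95% CI 26.7 to 43.4) in run 11, which was called, and by 19.3 points (16.3 to 22.3) in run 2, which was not. With gaps under 50 bp, run 11 shrank and its difference was 9.55 points with an adjusted p of 0.296 (Fisher's exact test).

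Run 1, at chr2:33419997-33420147 (76471 to 76621 bp downstream, 8 positions), was the run of either gene called lower in iPSC-DA neurons. Its level was 69.8% in iPSCs (95% CI 64.5% to 74.7%), 81.0% in mdDA neurons (77.4% to 84.1%), 85.7% in precursors (80.9% to 89.4%) and 60.3% in iPSC-DA neurons (57.0% to 63.4%). iPSC-DA neurons were the least methylated library here. The difference from mdDA neurons was -20.7 points (95% CI -25.2 to -15.9), close to the limit of a call, and over the unweighted mean of the 8 positions it was -17.2 points. The 42 positions of Lmx1b outside runs, in 20 shorter stretches, had a pooled level of 28.1% in iPSCs, 18.4% in mdDA neurons, 64.3% in precursors and 41.8% in iPSC-DA neurons, the same order as in runs 2 and 11.

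In the low runs, many single cytosines of iPSC-DA neurons had an intermediate level. The runs under 20% in both iPSCs and mdDA neurons, a group drawn with these levels known, were 4 at Lmx1a with 92 positions and 8 at Lmx1b with 145. Their pooled level at Lmx1a was 4.83% in iPSCs, 4.84% in mdDA neurons, 17.2% in precursors and 37.5% in iPSC-DA neurons, and at Lmx1b it was 5.33%, 5.69%, 27.7% and 43.6% in the same order. Of these 12 runs 11 were called higher in iPSC-DA than in mdDA neurons, compared with 29.4% of the 21516 runs of the genome that were under 20% in the same libraries.

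Every one of the 237 positions in these 12 runs was higher in iPSC-DA than in mdDA neurons, compared with 58.4% of 402067 positions in such runs over the genome. Levels between 40% and 60% in iPSC-DA neurons were found at 30 of 92 positions of Lmx1a (32.6%) and at 75 of 145 of Lmx1b (51.7%). Over the genome 11.7% of such positions were in this range. In neither iPSCs nor mdDA neurons was any of the 237 positions between 40% and 60%. Their runs were chosen for low levels in these libraries, so that this absence is largely set by the choice. No share over the genome is given for these libraries. The median position of iPSC-DA neurons was at 37.8% for Lmx1a and 44.5% for Lmx1b. That of mdDA neurons, which the same choice keeps low, was at 0.960% and 1.43%.

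**Figure D4:**
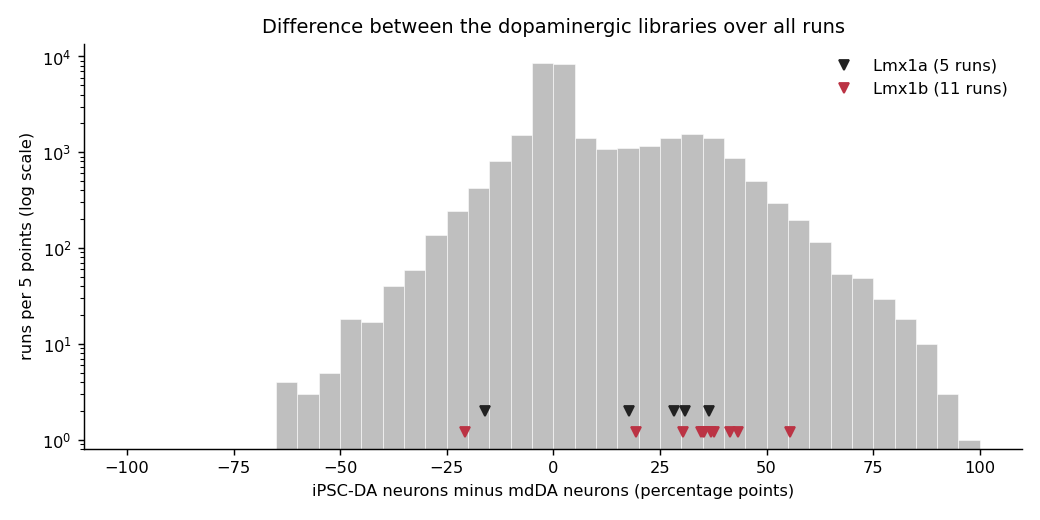
Number of runs of the genome (vertical axis, log scale) by the difference in methylation level between iPSC-DA and mdDA neurons (horizontal axis, percentage points, bins of 5 points), with the 5 runs of Lmx1a and the 11 runs of Lmx1b as triangles. Over all runs the median difference is 0.891 points, and 14 of the 16 triangles lie between 17.7 and 55.6 points.

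Calls between primary mdDA neurons and iPSCs were too few at these genes to set them apart from the genome. Of the 16 runs 1 was called, Lmx1a run 5, whose call rests on the single position given above, compared with 18% of all runs, 16.3% called higher and 1.68% called lower. Among runs of the genome with at least 10 positions the share called was 6.76%. At Lmx1b 0 of 11 runs were called, and 2 of 11 passed the adjusted p alone, run 1 at 11.2 points (95% CI 5.16 to 17.3) and run 2 at -7.59 points (-10.8 to -4.34). At Lmx1a 3 of 5 passed the adjusted p alone, run 5, run 2 at -12.5 points and run 1 at 1.21 points (95% CI 0.520 to 1.90). The share of all runs that passed the adjusted p alone is not given here, and the 18% does not apply to these counts. The median difference between mdDA neurons and iPSCs was 0.212 points at Lmx1a and 0.00462 points at Lmx1b. In the low runs the pooled difference was 0.0116 points at Lmx1a (95% CI -0.562 to 0.575) and 0.362 points at Lmx1b (-0.152 to 0.878). The value at Lmx1a includes runs 1 and 2, which lay in opposite directions. The low runs were drawn by their levels in these same libraries, so that no call was possible within them. A small pooled difference there is partly set by that choice and does not show that the libraries are alike.

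iPSC-DA neurons were also set against iPSCs, in a comparison that shares the library of iPSC-DA neurons with the previous one against mdDA neurons. At Lmx1a 2 of 5 runs were called higher than in iPSCs, and at Lmx1b 9 of 11, compared with 37.4% of all runs called higher and 0.83% called lower. Lmx1a run 2, which was partly methylated in iPSCs, was not called, with a difference of 15.8 points (95% CI 11.4 to 20). Lmx1b run 1 was lower in iPSC-DA neurons than in iPSCs by a difference of -9.51 points (95% CI -15.4 to -3.31), under the size of a call.

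Precursors lay above iPSCs in 5 of 5 runs at Lmx1a and in 11 of 11 at Lmx1b, a direction that most runs of the genome shared. The median difference was 11.2 points at Lmx1a and 17.5 points at Lmx1b, compared with 10.5 points over all runs. The smallest difference, in Lmx1a run 4, was larger than in 25.5% of all runs. Of these, 0 of 5 runs at Lmx1a and 5 of 11 at Lmx1b were called, compared with 34.9% of all runs, 34.8% called higher and 0.0285% lower, and 3 of 5 and 11 of 11 passed the adjusted p alone. The called runs of Lmx1b were run 10 at 59.7 points (95% CI 43.8 to 72.7), run 11 at 46.7 points (35.0 to 55.9), run 2 at 44.8 points (39.7 to 49.4), run 6 at 38.8 points (32.2 to 45.5) and run 7 at 23.4 points (21.0 to 25.9). At Lmx1a the differences ran from 0.790 points in run 4 to 18.4 points in run 2. With a minimum difference of 10 points 2 of 5 runs at Lmx1a and 11 of 11 at Lmx1b were called, compared with 51.1% of all runs. Over the unweighted mean of positions 0 of 5 and 9 of 11 were called, compared with 36.5% of all runs. These comparisons involve the shallowest library and another reporter line, and the part of either in the result was not tested.

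In the low runs, the difference of precursors from iPSCs was set against that of iPSC-DA neurons from iPSCs. This share had a median of 31.3% at Lmx1a, from 4.41% in run 4 to 116% in run 2, and a median of 50.7% at Lmx1b, from 36.6% in run 4 to 109% in run 6. The level of precursors exceeded that of iPSC-DA neurons in 3 of the 12 low runs, Lmx1a run 2 and Lmx1b runs 6 and 10, none of which was called between these libraries, and at Lmx1b also in runs 1, 2 and 11. Over all runs of the genome the median of iPSC-DA neurons minus precursors was -0.125 points, so that this direction was common. No share among the low runs of the genome is given. As both differences share the iPSC library and precursor levels are imprecise, the shares are given as a description.

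**Figure D5:**
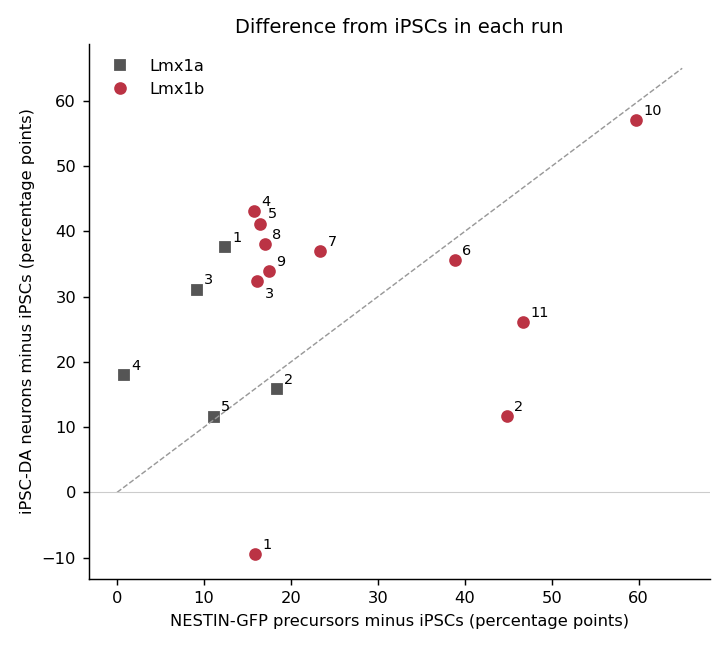
Difference in methylation level from iPSCs in precursors (horizontal axis, percentage points) and in iPSC-DA neurons (vertical axis, percentage points) for each run, numbered as in the text; grey squares are Lmx1a, red circles are Lmx1b and the dashed line marks equal differences. Points above the line, such as Lmx1b run 4 (15.7 and 43.1 points), were higher in iPSC-DA neurons than in precursors, and points below it, such as Lmx1b run 2 (44.8 and 11.7 points), were lower.

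Calls between precursors and iPSC-DA neurons changed with the settings at both genes. At Lmx1a 2 of 5 runs were called higher in iPSC-DA neurons, run 1 by 25.1 points (95% CI 22.8 to 27.3) and run 3 by 21.9 points (15.7 to 26.8), and 0 lower. With at least 10 calls per position both lost the call, at 17.4 points in run 1 and 17.2 points in run 3, and run 4 gained one at 23.4 points. At Lmx1b 3 of 11 were called higher, runs 4, 5 and 8, by 27.3, 24.7 and 21.0 points, and 3 lower, runs 2, 1 and 11, by differences of -33.1, -25.4 and -20.6 points. Over all runs 23.4% were called, 11.3% higher and 12.1% lower. The largest adjusted p among the called runs was 0.00191, for Lmx1b run 11 (Fisher's exact test). Over the unweighted mean of positions, 0 of 11 runs of Lmx1b were called higher and 1 lower, compared with 22.9% of all runs called, so that runs 4, 5 and 8 lost their call.

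Pooled over all runs of each gene, the levels of the paralogs lay farthest apart in precursors. The level of Lmx1a was 5.69% in iPSCs (95% CI 5.25% to 6.17%), 7.33% in mdDA neurons (6.90% to 7.79%), 21.4% in precursors (19.7% to 23.3%) and 38.9% in iPSC-DA neurons (38.0% to 39.7%). The level of Lmx1b was 8.70% in iPSCs (8.29% to 9.13%), 10.0% in mdDA neurons (9.57% to 10.5%), 39.1% in precursors (37.5% to 40.8%) and 44.3% in iPSC-DA neurons (43.7% to 45.0%). In every library the interval of Lmx1b lay above that of Lmx1a, over all runs and thus with the 3 methylated runs of Lmx1b. In the low runs alone the intervals of iPSCs overlapped, at 4.41% to 5.28% for Lmx1a and 4.99% to 5.70% for Lmx1b. The difference between iPSC-DA and mdDA neurons was 31.6 points at Lmx1a (95% CI 30.6 to 32.5) and 34.3 points at Lmx1b (33.5 to 35.1). The difference of precursors from iPSCs was 15.7 points at Lmx1a (13.9 to 17.6) and 30.4 points at Lmx1b (28.8 to 32.1). Under the alternatives this difference ranged from 10.9 to 16.1 points at Lmx1a and from 26.8 to 33.5 points at Lmx1b. In the low runs alone it was 12.3 points at Lmx1a (10.6 to 14.2) and 22.4 points at Lmx1b (20.7 to 24.1). Levels were pooled over calls, and the 3 methylated runs of Lmx1b held 756 of 3426 calls in precursors but 1793 of 17283 in iPSCs. No test of the genes against each other was possible over replicates, and whether the runs of the genes cover like kinds of sequence was not analysed.

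Promoters of related genes were looked at in the same way, using 10 LIM-homeodomain genes and 17 midbrain dopaminergic regulators or enzymes. Of these 27 genes 23 had a RefSeq promoter sequence, and 9 could be placed among the listed positions and overlapped a run. Between iPSC-DA and mdDA neurons 5 of the 9 promoter runs were called higher and 0 lower, with a median difference of 27.1 points, compared with 24.3% of all runs called higher. The largest adjusted p of the 5 was 3.69e-50, for Lhx4 (Fisher's exact test). mdDA neurons and iPSCs differed by a call in 0 of 9, with a median difference of 0.903 points.

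Among the relatives of Lmx1a and Lmx1b, Isl1, which specifies motor neurons, was at 5.89% in iPSCs, 7.51% in mdDA neurons, 8.91% in precursors and 44.8% in iPSC-DA neurons. Lhx1, a LIM-homeodomain gene of early head development, was at 2.50% in iPSCs, 4.93% in mdDA neurons, 1.84% in precursors and 37.3% in iPSC-DA neurons. Lhx4, which acts in pituitary and motor neuron development, was at 5.93% in iPSCs, 9.75% in mdDA neurons, 2.61% in precursors and 36.8% in iPSC-DA neurons. All 3 were called higher in iPSC-DA neurons than in each of the other libraries, and none was called between precursors and iPSCs. Isl2, a motor neuron gene like Isl1, was at 6.46% in mdDA neurons and 11.6% in iPSC-DA neurons and was not called.

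Of the regulators, Wnt1, a ligand of the isthmic organizer that acts together with Lmx1b in the midbrain, was the promoter called higher in precursors than in iPSCs. It was at 6.87% in iPSCs, 5.39% in mdDA neurons, 34.1% in precursors and 39.3% in iPSC-DA neurons. En1, a homeobox gene of the midbrain needed by mdDA neurons, was at 4.38% in iPSCs, 4.94% in mdDA neurons, 12.0% in precursors and 32.9% in iPSC-DA neurons. Both were called higher in iPSC-DA than in mdDA neurons. In contrast, Nr4a2 (Nurr1), an orphan nuclear receptor required for the dopaminergic phenotype, was at 4.57% in mdDA neurons and 4.11% in iPSC-DA neurons. Msx1, a homeobox target of Lmx1a in midbrain progenitors, was at 4.55% in the former and 3.88% in the latter, and Ldb1, the cofactor of LIM-homeodomain proteins, was at 2.63% and 3.03%. None of these 3 differed by a call in any of the 5 comparisons, with 95% of their calls or more unmethylated in every library. The values are of promoter runs alone. Within the body of Nr4a2 the study reported stronger methylation in iPSC-DA than in mdDA neurons, and that part was not analysed here.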

How the data were processed

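RRBS data of 4 mouse libraries were used, 1 per condition, grouped by their GEO labels. The authors trimmed reads of 40 bases with Trim Galore 0.3.5, checked them with FastQC, and aligned them and called methylation with Bismark 0.10.1 and Bareback. The authors deposited, for each cytosine position and strand, the count of methylated calls, the count of unmethylated calls and the percent methylated, without normalization or depth filter. Levels and intervals were computed here from the counts, so depth sets their precision. The genome build is not given in the sources used here. Listed positions of chromosome 1 reach 197192264, which goes past the end of that chromosome in GRCm38, and mm9 was taken.

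A run needed 5 or more positions, each with 5 or more calls in every library. For the 5 comparisons, p-values of Fisher's exact test were adjusted (Benjamini-Hochberg) over the 31564 runs, in Python 3.11.15 with numpy 2.4.6, pandas 2.3.3 and numba 0.67.0, after tests on simulated data. All runs of both windows are named. Single positions are otherwise given as the highest and lowest of a run. The genes, windows and related gene lists were chosen with earlier results of these data known. Alternatives changed depth, gap, run size, weights, strands, the libraries that must cover a position and the size of a call. Expression was not analysed here.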

Additional observations from a re-analysis of the deposited data

How the results depend on the processing

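No paired analysis was possible because each group had 1 library, and for the same reason no replicate could be left out. The direction of every difference of 1 run that was called held under every alternative in which a run overlapped it. Of 585 such values under alternatives 15 lost and 11 gained a call, and 559 stayed on the same side. Between iPSC-DA and mdDA neurons, the pooled difference ranged from 30.5 to 33.1 points at Lmx1a and from 32.5 to 35.8 points at Lmx1b. The cause of changes in the number of called runs was not tested.

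The counts of called runs are given with the number of runs under each setting, and where a percent follows, it is the share of all runs of the genome called there. Calls were all higher unless given otherwise. Between iPSC-DA and mdDA neurons, the 3 of 5 calls at Lmx1a became 5 of 6 with at least 10 calls (26%), 8 of 9 with gaps under 50 bp (26.2%), and 5 of 5, of them 1 lower, both at 10 points (36.4%) and on the logit scale (36.5%). The 10 of 11 at Lmx1b, of them 1 lower, became 4 of 5 with at least 10 positions (27.8%). Between iPSC-DA neurons and iPSCs, the 2 of 5 calls at Lmx1a became 4 of 6 with at least 10 calls (38%), 7 of 9 with gaps under 50 bp (35.6%) and 5 of 5 at 10 points (48.9%). The 9 of 11 at Lmx1b became 15 of 18, of them 1 lower, with at least 1 call (39.1%) and 4 of 5 with at least 10 positions (33.5%). A lower call also appeared at Lmx1b where the count changed little. It was 1 of the 9 called of 11 with merged strands (38.3%). It was 1 of the 8 called of 10 with gaps under 200 bp (40.1%) and 1 of the 11 called of 13 with coverage in the libraries compared (38.8%). Between mdDA neurons and iPSCs, the 1 of 5 at Lmx1a became 0 of 9 with gaps under 50 bp (12.6%), 0 of 3 with at least 10 positions (6.76%), 0 of 5 at 30 points (13.1%) and 0 of 5 without the single position of run 5. It became 2 of 5, of them 1 lower, at 10 points (25.9%) and on the logit scale (26.3%). The 0 of 11 at Lmx1b became 1 lower of 18 with at least 1 call (20%), 1 lower of 11 with coverage in the libraries compared (18.9%) and with merged strands (17.6%), and 1 lower of 10 with gaps under 200 bp (22.2%). It became 1 higher of 11 over the unweighted mean (18%) and at 10 points (25.9%). Between precursors and iPSCs, the 0 of 5 calls at Lmx1a became 1 of 9 with gaps under 50 bp (29.8%), 2 of 5 at 10 points (51.1%) and 2 of 5 on the logit scale (64.4%). The 5 of 11 at Lmx1b became 12 of 18, of them 1 lower, with at least 1 call (42.3%), 3 of 5 with at least 10 positions (18.3%), 9 of 11 over the unweighted mean (36.5%), 11 of 11 at 10 points and 10 of 11 on the logit scale. With merged strands the count stayed at 5 of 11, but 1 of the 5 was lower (33.2%). Between iPSC-DA neurons and precursors, the 2 of 5 calls at Lmx1a became 5 of 9 with gaps under 50 bp (24.1%) and 0 of 5 at 30 points (11.5%). The 6 of 11 at Lmx1b, of them 3 lower, became 12 of 18, of them 9 lower, with at least 1 call (26.3%), 3 of 5, of them 1 lower, with at least 10 positions (20.7%), and 1 of 11, which was lower, over the unweighted mean (22.9%) and at 30 points. With coverage in the libraries compared they became 9 of 14, of them 6 lower (24%).

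Pooled over its runs, the difference of Lmx1b between iPSC-DA neurons and precursors turned from 5.19 to -0.336 points with at least 1 call. That between mdDA neurons and iPSCs turned from 1.31 to -0.228 points with at least 1 call, to -0.368 with coverage in the libraries compared and to -0.0597 with merged strands.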

Other observations

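Within the 12 runs that were low in iPSCs and mdDA neurons, a few cytosines had a raised level in both libraries. Of the 237 positions 39 were at 15% or more in iPSCs, 40 in mdDA neurons and 28 in both. These 28 positions had a median of 18.5% in iPSCs, 21.1% in mdDA neurons, 24.0% in precursors and 54.1% in iPSC-DA neurons. The other 209 had medians of 0.847%, 0.935%, 21.1% and 39.5% in the same order. The 28 were chosen by their levels in iPSCs and mdDA neurons, so that those medians are a description, and no test was run. Among the 28 are cytosines of the pair of Lmx1b promoter CGs that lie in CCGG. Whether the others lie at cut sites of MspI or at ends of reads was not analysed.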
